A study of Mus musculus with 6 samples.

Results

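Metallothioneins are small, cysteine-rich proteins that bind zinc and copper, and they buffer the free zinc of a cell. Their genes are switched on by the zinc-sensing transcription factor MTF1, which binds metal response elements in their promoters, and they are also inducible by glucocorticoids and oxidative stress. Zinc transporters fall into a family that moves zinc out of the cytosol (Slc30a, or ZnT) and a family that moves it in (Slc39a, or ZIP). In the intestine, absorptive cells take up dietary zinc, and Paneth cells, the secretory cells at the crypt base, hold zinc in their granules.

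Described here are 7 genes of this system, the metallothioneins Mt1 and Mt2, the regulator Mtf1, the exporters Slc30a1 and Slc30a2, and the importers Slc39a4 and Slc39a5. They were chosen by name, as 7 of the 24736 gene symbols for which expression was given, and all 7 were among the 12268 genes with a mean of at least 1 TPM. TPM, the unit of the deposited values, scales a gene's reads by transcript length and by the library total, so that levels can be compared between genes.

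RNA sequencing was done on intestinal crypts, the epithelial pits that house the stem cells, from the full length of the gut of untreated male mice aged 12 weeks. The groups were 3 wild-type (WT) and 3 Mtg16-/- mice, with 1 library per animal. Mtg16, listed as Cbfa2t3, encodes a transcriptional co-repressor. The labels call the knockout CRISPR-induced, whereas the study describes Mtg16-/- mice received from another laboratory, and neither names a tissue-specific driver or, for these mice, a strain.

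The targeted gene did not separate the groups. Cbfa2t3 was at 3.67, 6.69 and 4.52 TPM in WT and at 4.62, 6.43 and 3.23 TPM in the libraries labelled Mtg16-/-, and its log2 fold change was -0.06 (SE 0.27; exact permutation test, two-sided p = 0.8). TPM over the whole gene does not check a deletion of part of it, so every direction given here rests on the labels alone.

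Summed levels of cell type markers also differed between the libraries. The 10 Paneth cell marker genes summed to 10080 to 21162 TPM in WT and 25402 to 31283 TPM in Mtg16-/-, and 11 enterocyte genes to 12650 to 36099 TPM in WT and 6508 to 12927 TPM in Mtg16-/-. The largest part of the Paneth sum was Defa24, at 3996 to 8609 TPM in WT and 11129 to 13212 TPM in Mtg16-/-. All 10 Paneth genes had a log2 fold change above 0, with groups that did not overlap for 5, and all 11 enterocyte genes had one below 0, with groups that did not overlap for 4. Over all genes tested, groups did not overlap for 9.94% with Mtg16-/- above and for 11.1% with Mtg16-/- below. Markers of the proximal small intestine summed to 2117 to 6332 TPM in WT and 703 to 1496 TPM in Mtg16-/-, and those of the ileum to 957 to 2234 TPM and 1072 to 2375 TPM, respectively. Most of the proximal sum was Fabp1, at 1642 to 5065 TPM in WT and 411 to 996 TPM in Mtg16-/-. Fabp1 and Lct are also in the enterocyte list, so the 2 sums are not separate. Of the 8 proximal genes, 7 had a log2 fold change below 0 and 1 above, with groups that did not overlap for 4, all with Mtg16-/- below. Stem cell and enteroendocrine marker sums were also higher without overlap, at 809 to 1399 TPM in WT and 1496 to 1940 TPM in Mtg16-/- for the former and at 199 to 245 TPM and 347 to 378 TPM for the latter. Most of the stem cell sum was Olfm4, at 647 to 1147 TPM in WT and 1239 to 1611 TPM in Mtg16-/-. Groups did not overlap, with Mtg16-/- above, for 3 of the 6 stem cell genes and 5 of the 6 enteroendocrine genes. Sums of goblet, immune, pancreatic acinar, erythrocyte and stromal markers overlapped between the groups, with the stromal sum at 12.2 to 20.8 TPM. Colon markers summed to 264 to 346 TPM in WT and 194 to 240 TPM in Mtg16-/-, with Hoxb13 listed at 0. No gene of any marker list passed the test described below. In bulk RNA, fewer cells of a type and less RNA per cell cannot be told apart, and the part of cell composition in the values below was not tested.

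Mt1 and Mt2 carry the letters of metal response elements close to their starts, and these sequences are shown because the largest differences among the 7 genes were seen in this pair. The core letters searched were TGCACNC and TGCGCNC on both strands, in a window from 250 bases before the RefSeq start to 50 after it (assembly GRCm38.p6). Capitals mark the core letters, and all sequences are read 5′ to 3′ on the plus strand, on which both genes lie. For Mt2 the stretch before the start is given whole, as 250 bases at chr8:94172368-94172617, and the site after the start, with its core at chr8:94172622-94172628, by itself.
Mt2: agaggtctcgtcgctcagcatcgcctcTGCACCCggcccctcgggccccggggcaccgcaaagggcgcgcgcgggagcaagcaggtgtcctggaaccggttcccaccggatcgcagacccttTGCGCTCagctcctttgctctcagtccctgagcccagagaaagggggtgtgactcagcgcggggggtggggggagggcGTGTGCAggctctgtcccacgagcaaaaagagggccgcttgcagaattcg
Mt2, after the start: gggtcGTGCGCAggccc
For Mt1, whose start in the window is at position 94179089, the sites are given with 5 bases on either side, in the order of their cores at chr8:94179066-94179072, chr8:94179091-94179097 and chr8:94179109-94179115.
Mt1, before the start: cgctgTGCACACtggcg
Mt1, after the start: agctcTGCACTCcgccc
Mt1, farther after the start: aaaagTGCGCTCggctc

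The Mt1 window thus held 3 matches, 1 of them before the RefSeq start, and the Mt2 window held 4, of which 3 lie before the RefSeq start. The last of these 3 and the site after it are on the minus strand. In GENCODE, another gene annotation, the earliest Mt2 start is at position 94172664, 46 bases beyond the RefSeq start. The latest is at position 94172860, 242 bases beyond it. The Mt2 site printed as after the start lies before both of these positions. Where transcription of either gene starts in these crypts was not measured. Of 32851 such windows in the genome, 8444 (25.7%) held at least 1 match, 647 (1.97%) held at least 3, and 170 (0.517%) held at least 4.

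Among the other members, the Slc30a1 and Slc30a2 windows held 2 matches each, the window of Mtf1 held 0, and the 2 windows of Slc39a5 held 0 and 1. The Slc30a1 match upstream of the start reads gttccGAGTGCAaagca. In all, 6 of the 7 genes had a window, Slc39a4 being the gene without an entry. The letters TGACNNNGC of the antioxidant response element, bound by NRF2, were present once in the Mt2 window, once in that of Slc30a1 and in 1 of the 2 Slc39a5 windows, against 12.4% of all windows. Such letter matches are a description of the sequence, not of binding.

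Metallothionein RNA was higher in every Mtg16-/- library than in any WT library. Mt2 showed the larger difference. It was at 11.94, 12.62 and 52.40 TPM in WT and at 126.78, 130.99 and 183.33 TPM in Mtg16-/-. The means were 25.7 ± 23.2 and 147 ± 31.5 TPM (SD, n = 3 each), a 5.73-fold ratio. The lowest Mtg16-/- library was thus above the highest WT library, WT replicate 3, which was itself well above the other WT libraries. On the log2(TPM + 1) scale the difference was 2.79 (SE 0.50, 95% confidence interval 1.63 to 3.95), the second highest among the 12268 genes tested. The adjusted p was 0.154 (limma's moderated test, Benjamini-Hochberg over all genes tested), above the threshold of 0.1 used for a call, and the exact permutation test gave its smallest possible two-sided p for 3 against 3 animals, 0.1.

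Mt1, the more abundant metallothionein in all 6 libraries, was at 106.58, 120.45 and 214.22 TPM in WT and at 270.65, 285.76 and 336.26 TPM in Mtg16-/-. Its means were 147 ± 58.6 and 298 ± 34.4 TPM (SD, n = 3 each), a 2.02-fold ratio. WT replicate 3 was again the highest WT library, and the groups did not overlap. On the log2 scale the difference was 1.07 (SE 0.25, 95% confidence interval 0.49 to 1.66), with an adjusted p of 0.225 in limma and an exact permutation p of 0.1. The side of the threshold on which these genes fell depended on the libraries and on the model. Without WT replicate 3, Mt2 differed by 3.46 (limma adjusted p = 0.00526) and Mt1 by 1.38 (limma adjusted p = 0.0952), and both passed. With all 6 libraries, both also passed with a block for replicate number (limma adjusted p = 0.00437 for Mt2 and 0.0123 for Mt1). That block assumes a pairing of the mice that the labels do not give. Mt2 but not Mt1 passed with array weights.

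**Figure D1:**
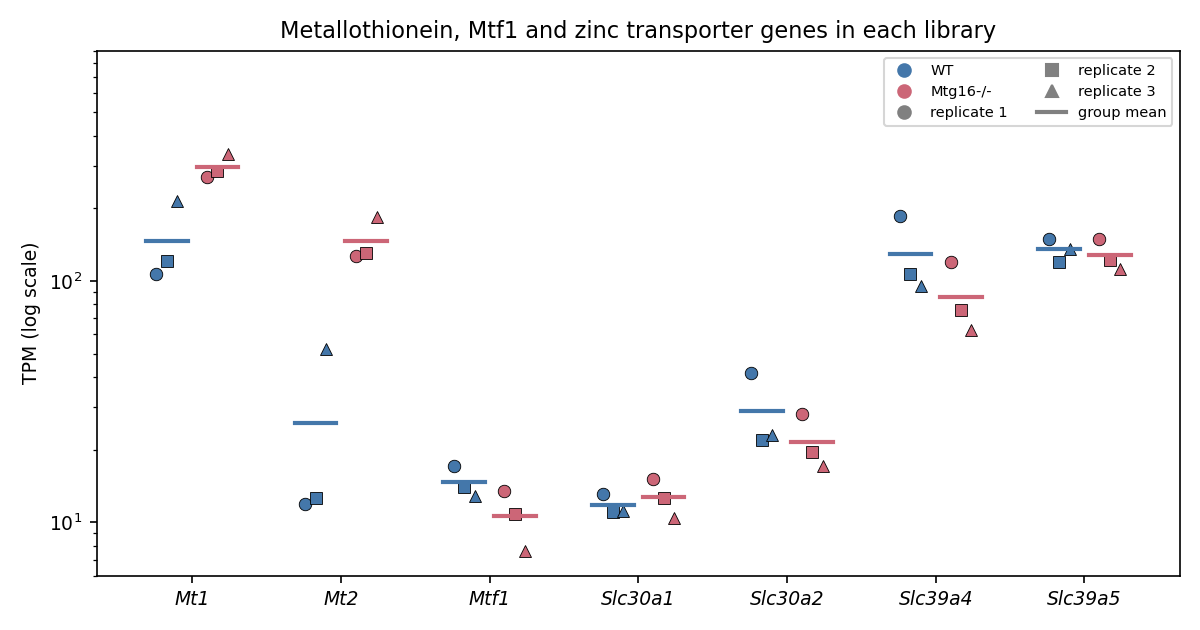
TPM of the 7 genes on a log axis, with a symbol for each of the 3 WT (blue) and 3 Mtg16-/- (red) libraries and a line at each group mean. Mt1 and Mt2 are the genes whose groups do not overlap, with Mt2 at 11.94 to 52.40 TPM in WT and 126.78 to 183.33 TPM in Mtg16-/-.

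Together Mt1 and Mt2 summed to 118.52, 133.07 and 266.62 TPM in WT and to 397.43, 416.75 and 519.59 TPM in Mtg16-/-. The means were 173 ± 81.6 and 445 ± 65.7 TPM (SD, n = 3 each), a 2.57-fold ratio.

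The balance between the pair differed as well. Mt2 made up 10.1%, 9.48% and 19.7% of the summed TPM in WT and 31.9%, 31.4% and 35.3% in Mtg16-/-, with means of 13.1% ± 5.71 and 32.9% ± 2.10 (SD, n = 3 each). The Mt1 to Mt2 ratio was 8.93, 9.54 and 4.09 in WT and 2.13, 2.18 and 1.83 in Mtg16-/-. WT replicate 3, with the highest metallothionein level of the WT libraries, also had the lowest WT ratio. The mean log2 ratio was lower in Mtg16-/- by 1.78, with groups that did not overlap and an exact permutation p of 0.1 (two-sided), the smallest this design allows.

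**Figure D2:**
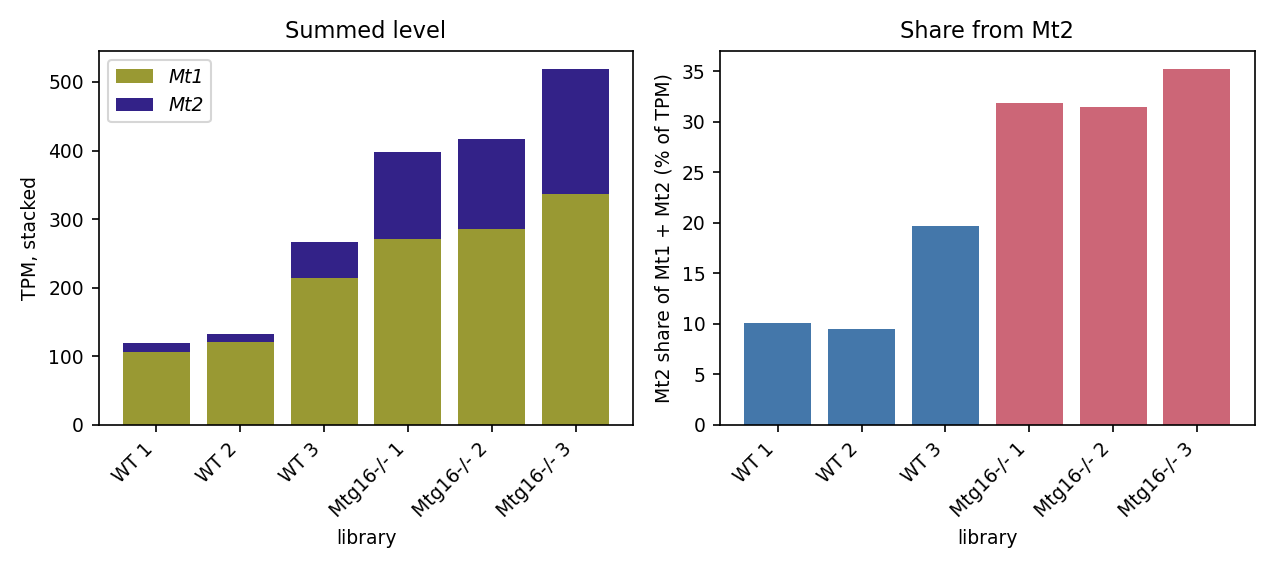
Bars for each of the 3 WT and 3 Mtg16-/- libraries show Mt1 and Mt2 TPM stacked to their sum on the left and Mt2 as a percentage of that sum on the right. Mt2 holds 9.48% to 19.7% of the sum in WT, below its share of 31.4% to 35.3% in Mtg16-/-.

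Mt2 lies at chr8:94172618-94173567 and Mt1 at chr8:94178883-94180327, 5.32 kb apart as RefSeq gene spans, the latter with a predicted transcript that starts upstream of the site used above. The Mt1 transcript searched, 1 of 3 annotated, shared none of its 500 stretches of 50 bases with another annotated gene. Of the 462 such stretches of the Mt2 transcript searched, 1 of 2 annotated, 210 (45.5%) were shared with Gm45774, an annotated gene on the opposite strand of Mt2 that has no value of its own here. Whether counting used strand is not given in the sources used here, so reads of Mt2 and Gm45774 might not have been told apart.

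The transcription factor gene Mtf1 (chr4:124802549-124849800) did not share the higher values of its metallothionein targets. It was at 17.13, 13.94 and 12.81 TPM in WT and at 13.48, 10.78 and 7.59 TPM in Mtg16-/-, so the groups overlapped at the top Mtg16-/- library. The means were 14.6 ± 2.24 and 10.6 ± 2.95 TPM (SD, n = 3 each). The log2 fold change of -0.45 (SE 0.21, 95% confidence interval -0.94 to 0.04) did not pass the test (limma adjusted p = 0.372, exact permutation p = 0.2), and without Mtg16-/- replicate 3 it was -0.25. Mtf1 overlaps 1110065P20Rik on the opposite strand.

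Slc30a1 (chr1:191906697-191913248) encodes the plasma membrane zinc exporter ZnT1, itself an MTF1 target. It was at 13.09, 11.01 and 11.13 TPM in WT and at 15.10, 12.59 and 10.37 TPM in Mtg16-/-. The Mtg16-/- group held both the highest and the lowest library. Its log2 fold change was 0.09 (SE 0.17, 95% confidence interval -0.29 to 0.48, limma adjusted p = 0.817), and its sign turned to -0.032 without Mtg16-/- replicate 1. Slc30a1 overlaps the antisense gene 1700034H15Rik.

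Slc30a2 (chr4:134343046-134354484) encodes ZnT2, a vesicular transporter that loads zinc into secretory granules, including those of Paneth cells. It was at 41.52, 21.81 and 22.95 TPM in WT and at 28.09, 19.56 and 17.10 TPM in Mtg16-/-, with overlapping groups and means of 28.8 ± 11.1 and 21.6 ± 5.77 TPM (SD, n = 3 each). WT replicate 1 was the highest library. Slc30a2 had a log2 fold change of -0.37 (SE 0.27, 95% confidence interval -1.0 to 0.27, limma adjusted p = 0.538), which did not pass the test, and without WT replicate 1 it was -0.079. The Paneth marker sum was higher in every Mtg16-/- library, as given above, whereas Slc30a2 was not. That sum does not stand for each Paneth gene, since groups did not overlap for 5 of the 10. WT replicate 1 also had the highest enterocyte marker sum, 36099 TPM.

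The importer Slc39a4 (chr15:76612383-76618506) encodes ZIP4, the apical transporter of dietary zinc uptake. It was at 186.55, 107.16 and 95.23 TPM in WT and at 119.24, 75.83 and 62.44 TPM in Mtg16-/-, with means of 130 ± 49.6 and 85.8 ± 29.7 TPM (SD, n = 3 each). The groups overlapped through Mtg16-/- replicate 1. Slc39a4 had a log2 fold change of -0.58 (SE 0.30, 95% confidence interval -1.28 to 0.13, limma adjusted p = 0.411). WT replicate 1, the highest library for Slc39a4, also had the highest enterocyte marker sum, 36099 TPM, and without it the log2 fold change was -0.29.

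Slc39a5 (chr10:128395927-128401276) encodes ZIP5, a basolateral importer. It was at 149.65, 119.98 and 135.69 TPM in WT and at 148.85, 121.56 and 112.18 TPM in Mtg16-/-, with means of 135 ± 14.8 and 128 ± 19.0 TPM (SD, n = 3 each). The ranges nearly coincided. The log2 fold change was -0.09 (SE 0.15, 95% confidence interval -0.43 to 0.26, limma adjusted p = 0.804). Slc39a5 overlaps Ankrd52 on the opposite strand.

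None of the 7 genes passed the adjusted threshold in limma, against 0.0326% of all genes tested (4 of 12268, with 0.0163% higher and 0.0163% lower). The study itself reports far more differentially expressed genes, from a test not repeated here. A gene that did not pass here is thus not shown to be unchanged. At an unadjusted p under 0.05 there were 2 members, Mt1 and Mt2, against 14.6% of all genes. The same 2 members had groups that did not overlap, both with Mtg16-/- above, against 21.0% of all genes in either direction and 9.94% in that one. A log2 fold change of at least 1 was reached by Mt1 and Mt2 and by 0.766% of all genes. The log2 fold change was above 0 for 3 members and below 0 for 4, with a median of -0.09 beside -0.03 for all genes tested.

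**Figure D3:**
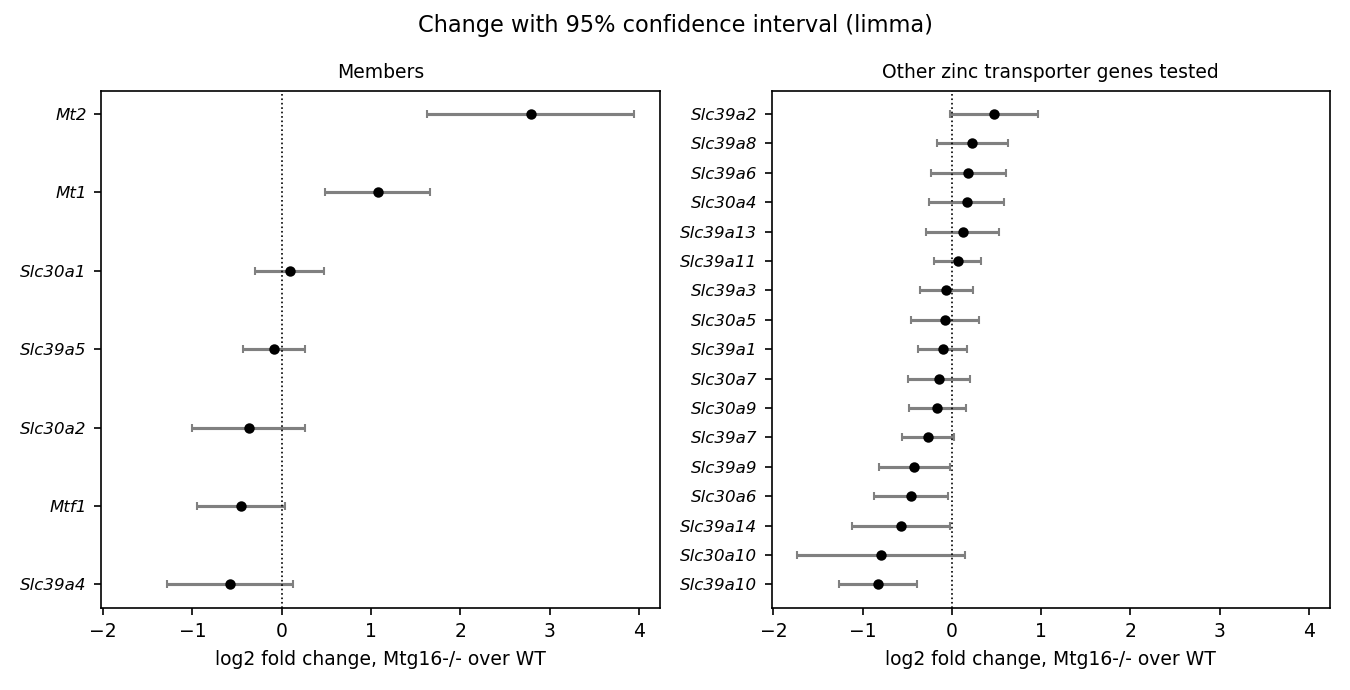
Log2 fold changes of log2(TPM + 1), Mtg16-/- over WT, with 95% confidence intervals from limma for the 7 members on the left and the 17 other zinc transporter genes tested on the right. Mt2 at 2.79 and Mt1 at 1.07 stand highest, while the intervals of the other 5 members include 0.

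The order of levels on the TPM scale differed between the groups. In WT, Mt1, Slc39a5 and Slc39a4 had the highest means with overlapping ranges, and Slc39a4 was above Slc30a2 in every library. Below that, Slc30a2, Mt2, Mtf1 and Slc30a1 each overlapped the next gene in the order. In Mtg16-/-, Mt1 led without overlap with Mt2, and Mt2 overlapped Slc39a5, which overlapped Slc39a4. Among the 7 genes, Mt2 took ranks 7, 6 and 4 in WT but 3, 2 and 2 in Mtg16-/-.

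Across the rest of the zinc transporter and metallothionein family, 17 of 23 listed genes could be tested and none passed in limma. At an unadjusted p under 0.05 there were 4, against 14.6% of all genes, and their values in Mtg16-/- were below those in WT. Groups did not overlap for 6 of the 17, with Mtg16-/- above for 1 and below for 5, against 9.94% and 11.1% of all genes. The median log2 fold change was -0.10.

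Slc39a10, the plasma membrane importer ZIP10, had the smallest p of these genes. It was at 8.06, 9.68 and 7.01 TPM in WT and at 3.75, 5.24 and 3.66 TPM in Mtg16-/-, a log2 fold change of -0.83 (SE 0.19, limma adjusted p = 0.225). Every Mtg16-/- library was below every WT library. Slc39a14, an importer of zinc and iron, was at 89.23, 47.81 and 54.74 TPM in WT and at 46.85, 43.64 and 34.28 TPM in Mtg16-/- (log2 fold change -0.57, limma adjusted p = 0.330).

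Slc39a9, an importer of the secretory pathway, was at 80.82, 52.60 and 57.26 TPM in WT and at 50.14, 44.84 and 44.24 TPM in Mtg16-/- (log2 fold change -0.42, limma adjusted p = 0.322). Slc30a6, which moves zinc into the Golgi, was at 27.01, 17.17 and 19.41 TPM in WT and at 14.18, 14.31 and 16.14 TPM in Mtg16-/- (log2 fold change -0.46, limma adjusted p = 0.312). In Slc39a9, Slc39a14 and Slc30a6 alike, WT replicate 1 was the highest library and the groups did not overlap. Of the other metallothionein genes, Mt4 was listed at 0 in every library and Mt3 reached at most 0.50 TPM. Slc30a3, Slc30a8, Slc39a12 and Tmem163 were likewise under the mean of 1 TPM and were not tested.

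Mt1 and Mt2 lie on the same chromosome as the targeted gene, 28.4 Mb away from it. Of 25 other tested genes within 1 Mb of the pair, none passed in limma, 5 had an unadjusted p under 0.05 against 14.6% of all genes, and the median log2 fold change was -0.06. Groups did not overlap for 4 of the 25, against 21.0% of all genes, a count that does not stand above the background. Mtg16-/- was above for Ces1d, a carboxylesterase gene (log2 fold change 0.99, limma adjusted p = 0.195), and Nudt21, an mRNA processing factor (0.44, limma adjusted p = 0.288). It was below for Ces1f (-0.56, limma adjusted p = 0.300) and Ciapin1 (-0.40, limma adjusted p = 0.270). The tested genes next to the pair were Bbs2 at 0.34 (limma adjusted p = 0.539) and Nup93 at -0.11 (limma adjusted p = 0.721).

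**Figure D4:**
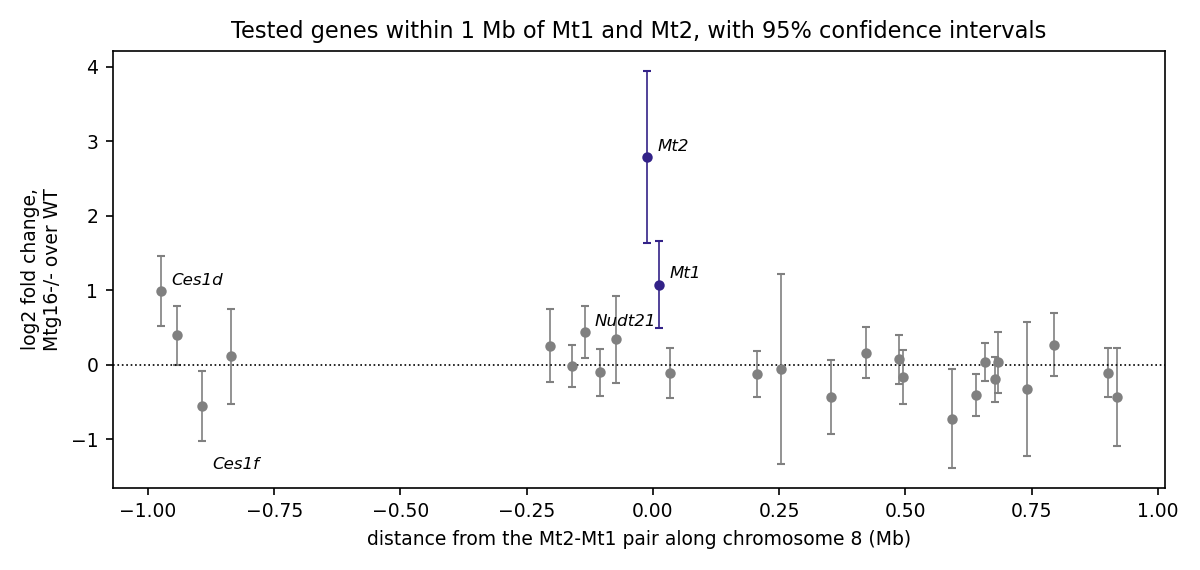
Log2 fold change, Mtg16-/- over WT, with 95% confidence intervals from limma, against distance in Mb from the Mt2-Mt1 pair for tested genes within 1 Mb, with Mt2 and Mt1 drawn slightly apart. The 25 other genes lie between -0.73 and 0.99, below Mt1 at 1.07 and Mt2 at 2.79.

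Further lists cover other metals and inputs of metallothionein genes. Of 8 tested genes reported elsewhere as MTF1 targets, none passed in limma, 4 had an unadjusted p under 0.05 against 14.6% of all genes, and the median log2 fold change was 0.11. These 4 were split in direction. Csrp1, a LIM domain protein, was at 20.47, 27.42 and 31.88 TPM in WT and at 37.98, 35.98 and 45.53 TPM in Mtg16-/- (log2 fold change 0.58, limma adjusted p = 0.272). Ndrg1, a stress-responsive gene, was at 44.39, 43.14 and 48.82 TPM in WT and at 67.86, 55.30 and 55.40 TPM in Mtg16-/- (log2 fold change 0.38, limma adjusted p = 0.286). Both had every Mtg16-/- library above every WT library. The remaining genes of the 4 had every Mtg16-/- library below every WT library, namely Nfe2l2, which encodes NRF2 (log2 fold change -0.39, limma adjusted p = 0.318), and Txnrd1, a thioredoxin reductase gene (-0.30, limma adjusted p = 0.312). Groups thus did not overlap for 2 of the 8 genes with Mtg16-/- above and for 2 below, against 9.94% and 11.1% of all genes.

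Among 12 tested genes of the glucocorticoid response, none passed in limma, 4 had an unadjusted p under 0.05 against 14.6% of all genes, and the median was -0.21, with 5 genes above 0 and 7 below. Fkbp5, a chaperone gene and a widely used glucocorticoid target, was at 33.54, 48.38 and 60.27 TPM in WT and at 14.13, 12.32 and 15.74 TPM in Mtg16-/-. The log2 fold change was -1.65 (SE 0.21, limma adjusted p = 0.104), and it passed without WT replicate 1 (limma adjusted p = 0.0226). Tsc22d3, which encodes the glucocorticoid-induced leucine zipper, was at 66.15, 33.92 and 45.63 TPM in WT and at 30.13, 22.77 and 26.16 TPM in Mtg16-/- (log2 fold change -0.81, limma adjusted p = 0.263). For both genes the Mtg16-/- libraries were below all WT libraries. Ddit4, a stress-induced inhibitor of mTORC1 signalling, had them above, at 19.30, 23.79 and 23.33 TPM in WT and at 24.79, 32.74 and 29.81 TPM in Mtg16-/- (log2 fold change 0.38, limma adjusted p = 0.315). The last of the 4, Sgk1, had overlapping groups and a log2 fold change of -0.75 (limma adjusted p = 0.327). Ddit4 was thus the only one of the 4 with a log2 fold change above 0. Groups did not overlap for 1 of the 12 genes with Mtg16-/- above and for 2 below, against 9.94% and 11.1% of all genes.

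Of 13 tested copper handling genes, none passed in limma, 5 had an unadjusted p under 0.05 against 14.6% of all genes, and the median was -0.24, with 3 genes above 0 and 10 below. Sco2, a copper chaperone of cytochrome c oxidase, was at 46.47, 38.09 and 40.84 TPM in WT and at 32.12, 27.89 and 34.12 TPM in Mtg16-/- (log2 fold change -0.40, limma adjusted p = 0.282). Cox17, which delivers copper to the same complex, was at 169.05, 148.03 and 165.95 TPM in WT and at 136.71, 118.42 and 133.28 TPM in Mtg16-/- (log2 fold change -0.31, limma adjusted p = 0.312). Both had lower values in every Mtg16-/- library. Ccs, the copper chaperone of superoxide dismutase, had higher ones, at 41.18, 45.18 and 48.21 TPM in WT and at 54.50, 52.20 and 59.78 TPM in Mtg16-/- (log2 fold change 0.30, limma adjusted p = 0.314). It was the only one of the 5 above 0. The remaining genes of the 5 were Atp7b (-0.57, limma adjusted p = 0.312) and Cox11 (-0.33, limma adjusted p = 0.331). Groups did not overlap for 1 of the 13 genes with Mtg16-/- above and for 4 below, against 9.94% and 11.1% of all genes.

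**Figure D5:**
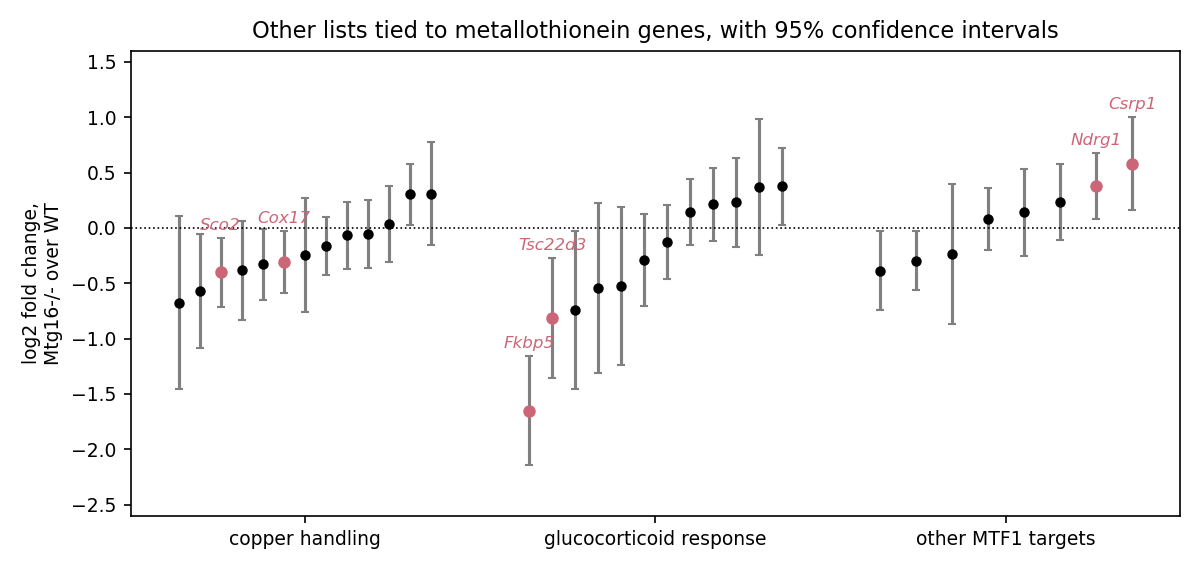
Log2 fold changes, Mtg16-/- over WT, with 95% confidence intervals from limma, for tested genes of copper handling (13), the glucocorticoid response (12) and other reported MTF1 targets (8), ordered within each list, with the 2 genes of smallest p in each labelled. Fkbp5 at -1.65 lies farthest from 0, and Csrp1 at 0.58 is the highest of the MTF1 targets.

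Over the 6 libraries, the genes most like Mt1 by Pearson's r of log2(TPM + 1) were 2810408A11Rik (0.998), Tubb2b (0.997), Mt2 (0.994), Rfwd3 (0.994) and Bckdhb (0.991), out of 12267 others. For Slc30a2 they were Pqlc2 (0.997), Enpep (0.996), Tesk2 (0.996), Naprt (0.995) and Padi2 (0.995). These 6 points hold both genotypes, so a difference between the groups in 2 genes raises r between them. It reached 0.95 with Mt1 in 103 genes and with Slc30a2 in 444. Slc39a4 followed Slc30a2 with an r of 0.972, at rank 171.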

How the data were processed

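Crypt RNA of 3 WT and 3 Mtg16-/- mice was depleted of ribosomal RNA and sequenced. The deposited values are TPM from RSEM, in which every library has the same total. Depth is therefore unknown. The submitters' processing notes name cutadapt 1.9.1, STAR 2.5.2a, RSEM 1.3.0, DESeq2 1.12.3 and mm10. Counts were not used here, so no count test was run.

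Values were taken as log2(TPM + 1), whose fold changes understate those of low genes. Genes averaging 1 TPM or more were tested with limma 3.58.1 (lmFit, eBayes with trend, no covariates; R 4.3.3), with Benjamini-Hochberg adjustment over 12268 genes and a call at an adjusted p under 0.1. The code was tested on simulated data. Single values had two-sided exact permutation tests. Coordinates and promoter windows came from RefSeq, GRCm38.p6, in which 24072 of 24736 symbols matched.

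The 7 members and all lists were chosen with earlier results of these data known. Named genes were the 7 members, the 4 family genes of smallest p and those below 1 TPM, the 2 of smallest p in each other list, the 5 most like Mt1 and Slc30a2, and Cbfa2t3. The genes named around the pair, and Nfe2l2, Txnrd1, Ddit4, Sgk1, Ccs, Atp7b and Cox11, were chosen after their values were seen. Alternatives were another pseudocount, filter, scaling, moderation or weighting, a replicate block, a stricter threshold and leaving out each library.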

Additional observations from a re-analysis of the deposited data

How the results depend on the processing

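Mt1 and Mt2 kept their direction under all 16 alternatives, at log2 fold changes of 0.70 to 1.38 and 1.98 to 3.46, and their limma adjusted p ranged from 0.0123 to 0.590 and from 0.00437 to 0.590. Of the 7 members 0 passed, but array weights passed 1 (Mt2), and leaving out single libraries passed 0 to 2, with 2 (Mt1 and Mt2) without WT replicate 3. The log2 Mt1 to Mt2 ratio differed by -2.17 to -1.56 without single libraries. Slc30a1 ranged from -0.032 to 0.22 without single libraries and was -0.032 without Mtg16-/- replicate 1. Slc39a5 turned to 0.046 with quantile normalization.

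Array weights passed 1 other zinc family gene (Slc39a10), 2 copper genes and 2 glucocorticoid response genes. Fkbp5 was the 1 glucocorticoid response gene that passed with a mean TPM of at least 5, the 1 with robust moderation and the 1 without WT replicate 1 (range without single libraries 0 to 1). Of all genes, 4 passed, against 0 without a filter, without a trend or at an adjusted p under 0.05, 15 with a mean TPM of at least 5, 1 with median-ratio rescaling, 1 with quantile normalization, 20 with robust moderation and 855 with array weights. The share of calls that were higher was 50% and became 100% with either rescaling, where it rests on 1 gene each. Without single libraries 0 to 40 genes passed, with 40 without WT replicate 1, 9 without WT replicate 3 and 0 without Mtg16-/- replicate 3. Causes were not tested.

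Deviations of same-numbered libraries correlated at r = 0.429, 0.0753 and 0.237, and 1 of the 3 was not over 0.1, so the numbers were not taken to pair the mice. Of the 6 libraries 5 correlated best with the library of their own number, which is a hint of pairing from the data and not from the design, and WT replicate 2 with Mtg16-/- replicate 3. With a replicate block, 1201 genes passed (32.1% higher), among them 3 members (Mt1, Mt2 and Slc39a4), 2 other zinc family genes, 3 glucocorticoid response genes, 1 copper gene and 1 MTF1 target. The unknown depth and the 3 animals per group limit what these values can separate.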
